A study of Homo sapiens with 4 samples.

Results

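The B-cell receptor signals through a short chain of proteins at the plasma membrane, and 10 genes that encode this chain were examined in RNA-seq of 2 lymphoma cell lines. They were taken by symbol from the deposited gene table: CD79A and CD79B, the signalling chains of the receptor, the kinases LYN, BLK, SYK and BTK, the adaptor BLNK, the effectors PLCG2 and PRKCB, and the phosphatase PTPN6. These are 10 of the 41507 genes in the gene table and 34 of the 67765 transcripts in the transcript table. SU-DHL-5 and Toledo are established lines of diffuse large B-cell lymphoma (DLBCL), a tumour of mature B cells. Cells of each line were cultured in RPMI1640 medium with serum and received DMSO, the vehicle, or JQ1 at 1 µM for 6 h as the sample labels give it, and the text of the study gives a longer time. JQ1 is a small molecule that binds the bromodomains of BET proteins and displaces them from acetylated chromatin. Each of the 4 groups (SU-DHL-5 DMSO, SU-DHL-5 JQ1, Toledo DMSO and Toledo JQ1) had 1 sample with 2 libraries, and the sources used here do not say what separates the libraries. The libraries were therefore averaged and counted as 1 sample, which leaves n = 1 a group, no check by replicates and no p-value. No receptor stimulation is named in the labels, and each line stands for 1 tumour.

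In a mature B cell the immunoglobulin binds antigen and CD79A and CD79B carry the signal into the cell. Their cytoplasmic tails hold tyrosine motifs (ITAMs) that LYN and BLK, kinases of the SRC family, phosphorylate. SYK binds the phosphorylated motifs and phosphorylates the adaptor BLNK, which brings BTK to phospholipase C gamma 2, the product of PLCG2. The lipid products of this phospholipase release calcium and activate protein kinase C beta, the product of PRKCB, which leads to NF-κB. PTPN6 encodes SHP-1, a phosphatase recruited by inhibitory receptors such as CD22 and CD72, and LYN has both activating and inhibitory roles. Inhibitors of BTK are used in B-cell cancers, and a subset of DLBCL depends on this signalling.

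Levels are RPKM, which divide the reads of a feature by its length and by the mapped reads of the library, so that levels of different genes can be set side by side. The 8 libraries had 14617583 to 17679831 mapped reads, recovered from the RPKM values, and 94.8% to 95.5% of them were on genes. Ratios are log2((first + 0.1)/(second + 0.1)) of the mean RPKM. Each 95% interval is an exact binomial interval from the reads and covers counting error only. All 7 B-cell markers examined, MS4A1, PAX5, CD22, EBF1, CD79A and CD79B among them, were at or above 1 RPKM in every sample, so markers of the labelled cell type were present. The summed level of 5 T-cell markers was at most 12.9 RPKM, with CD2 listed at 0 in every sample. That of 5 myeloid markers was at most 1.34 RPKM, with MPO at 0. In SU-DHL-5 with DMSO, CD3E, CD247 and the myeloid marker LYZ were at or above 1 RPKM, and CD247 was so with JQ1 too. For 4 plasma cell markers the sum was 6.5 to 15.5 RPKM in SU-DHL-5 and 87.6 to 106 RPKM in Toledo. Of these PRDM1 and SDC1 were below 1 RPKM in every sample, XBP1 in none, and IRF4 in SU-DHL-5 alone. In RNA from whole cultures, a lower level can come from fewer cells that express a gene or from less RNA per cell, and these cannot be told apart. RPKM is also relative to the mapped reads of its library, so these values do not give the absolute amount of an RNA.

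Of the sequences of these genes, DNA around the starts and 1 alternative exon are described here. A link between a motif and a level or a ratio was not tested. RefSeq promoter windows of GRCh38.p14, from 250 bases before an annotated start to 50 after it, were available as 11 windows of 7 of the genes, and CD79B, LYN and BLK had no entry used here. The windows were searched on both strands for 4 motifs: the octamer ATTTGCAT bound by OCT factors, the E-box CACGTG bound by MYC, the EBF core CCCNNGGG, and AGGAAGT, an ETS motif of the PU.1 type. The ETS motif was in 5 of the 11 windows (CD79A, SYK, BLNK, 1 of BTK and 1 of PTPN6), against 8.24% of all 35116 windows in the table. For BTK and PTPN6 it was not in the window at which the main transcript starts. The EBF core was in 3 windows (both of PTPN6 and 1 of BTK), against 19.1% of all windows. The octamer was in 1 window (PRKCB), against 1.77%, and the E-box was in none of the 11, against 7.26%. These matches describe letters, not binding. The windows of CD79A, BLNK, PRKCB and both starts of PTPN6 are shown as examples with a match, in capitals, and are not typical of the set. Of the 11 windows 4 held no match, namely that of PLCG2, 2 of SYK and the one of BTK at which its main transcript starts. The window of PLCG2 and 1 of these of SYK held no start of a listed transcript. The windows shown lie at chr19:41877029-41877328 (plus strand), chr10:96271520-96271819 (minus strand), chr16:23835733-23836032 (plus strand), chr12:6946327-6946626 and chr12:6951106-6951405 (both plus strand). The last sequence is exon 8 of 17 of BLNK, chr10:96215321-96215389 on the minus strand, in capitals with 12 transcript bases on each side from the GENCODE transcript. This coding exon of 69 bases (23 codons) is in the transcript BLNK_2 and not in BLNK_1, and the lines differed in the shares of these forms.
CD79A promoter: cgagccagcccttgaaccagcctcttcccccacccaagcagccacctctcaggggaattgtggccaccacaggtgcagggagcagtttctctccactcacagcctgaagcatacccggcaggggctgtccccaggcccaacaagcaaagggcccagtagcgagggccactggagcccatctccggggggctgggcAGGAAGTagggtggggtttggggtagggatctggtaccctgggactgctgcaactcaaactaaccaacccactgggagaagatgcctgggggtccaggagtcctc
BLNK promoter: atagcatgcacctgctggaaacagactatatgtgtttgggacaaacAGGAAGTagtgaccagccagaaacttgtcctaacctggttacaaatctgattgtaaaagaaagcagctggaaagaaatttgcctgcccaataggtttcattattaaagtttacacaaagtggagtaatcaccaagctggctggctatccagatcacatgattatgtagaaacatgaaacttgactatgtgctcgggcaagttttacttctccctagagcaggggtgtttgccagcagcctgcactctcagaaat
PRKCB promoter: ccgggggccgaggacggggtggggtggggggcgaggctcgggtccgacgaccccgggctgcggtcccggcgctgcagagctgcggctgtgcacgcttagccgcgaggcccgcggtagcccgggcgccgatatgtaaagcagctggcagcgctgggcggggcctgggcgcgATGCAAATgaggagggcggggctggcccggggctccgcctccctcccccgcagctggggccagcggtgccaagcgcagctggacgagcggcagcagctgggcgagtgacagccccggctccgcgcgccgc
PTPN6 upstream promoter: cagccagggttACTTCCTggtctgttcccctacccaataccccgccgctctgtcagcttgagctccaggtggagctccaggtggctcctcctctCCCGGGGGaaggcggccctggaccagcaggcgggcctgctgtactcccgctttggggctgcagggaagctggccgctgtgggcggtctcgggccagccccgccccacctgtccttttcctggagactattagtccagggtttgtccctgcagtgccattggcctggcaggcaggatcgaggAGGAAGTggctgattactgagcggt
PTPN6 downstream promoter: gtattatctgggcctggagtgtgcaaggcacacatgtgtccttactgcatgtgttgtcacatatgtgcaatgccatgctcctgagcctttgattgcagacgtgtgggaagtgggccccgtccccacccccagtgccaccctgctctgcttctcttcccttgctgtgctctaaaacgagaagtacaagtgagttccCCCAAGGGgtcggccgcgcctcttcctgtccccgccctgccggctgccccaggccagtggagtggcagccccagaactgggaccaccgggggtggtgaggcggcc
BLNK exon 8: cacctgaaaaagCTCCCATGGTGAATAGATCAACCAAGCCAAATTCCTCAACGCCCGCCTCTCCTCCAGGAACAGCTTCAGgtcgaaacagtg

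The signalling chains of the receptor had the highest levels of the 10 genes in every sample, and CD79A was lower under JQ1 in both lines. CD79A (chr19:41877120-41881372) was at 643 and 562 RPKM in the SU-DHL-5 DMSO libraries and at 370 and 367 RPKM under JQ1. In Toledo it was at 313 and 296 RPKM in DMSO and at 173 and 185 RPKM under JQ1. No JQ1 library reached a DMSO library of its line, and the drop was of like size in both. The log2 ratio was -0.71 in SU-DHL-5 (95% interval -0.74 to -0.68) and -0.76 in Toledo (-0.81 to -0.73), which is 1.64-fold and 1.70-fold lower. CD79B (chr17:63928738-63932349), its partner in the heterodimer, was at 234 and 217 RPKM in SU-DHL-5 with DMSO and at 228 and 226 RPKM with JQ1, and these libraries overlapped. In Toledo CD79B was at 474 and 413 RPKM in DMSO and at 359 and 371 RPKM under JQ1. Its log2 ratio was 0.01 in SU-DHL-5 (-0.03 to 0.05) and -0.28 in Toledo (-0.32 to -0.25), and in Toledo library 2 alone gave -0.16. Over 9467 genes (points that are not independent) the log2 ratio between the DMSO libraries of Toledo went with transcript length (Spearman's rho of 0.62). For the other samples rho was between -0.28 and -0.06. With centring on length, CD79B was at 0.12 in SU-DHL-5 and at -0.12 in Toledo. The same centring put CD79A at -0.60 in SU-DHL-5 and at -0.61 in Toledo. So the partners did not move in step. The ratio of CD79A to CD79B levels was 2.67 in SU-DHL-5 with DMSO and 1.62 with JQ1, and 0.686 and 0.491 in Toledo. The chain with the higher level was CD79A in SU-DHL-5 and CD79B in Toledo, in all libraries.

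**Figure D1:**
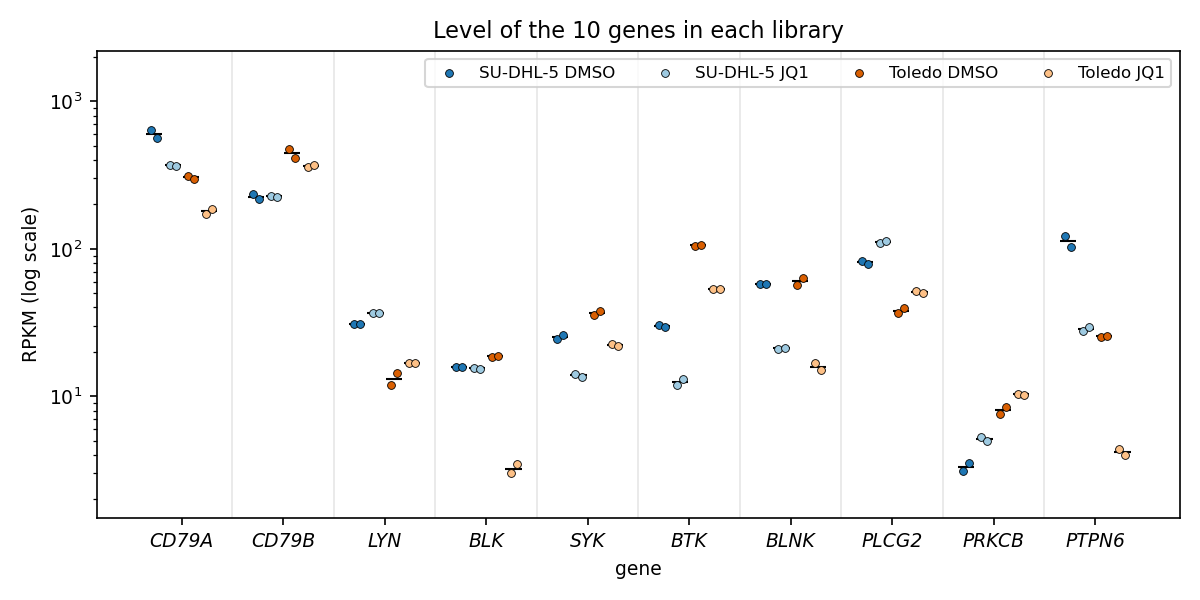
RPKM of the 10 genes on a log scale, with a point for each of the 2 libraries of a sample and a line at their mean. CD79A and CD79B lie on top in every sample, and PTPN6 spans the widest range, from 112.6 RPKM in SU-DHL-5 with DMSO to 4.19 RPKM in Toledo with JQ1.

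The SRC-family kinases LYN and BLK, which act first on the receptor tails, differed from each other. LYN (chr8:55879827-56012447) was higher under JQ1 in both lines by a small amount. It was at 30.7 and 30.9 RPKM with DMSO and at 36.7 and 36.4 RPKM with JQ1 in SU-DHL-5. In Toledo it was at 11.9 and 14.3 RPKM with DMSO and at 16.8 and 16.7 RPKM with JQ1. The libraries did not overlap, and the log2 ratio was 0.25 (0.19 to 0.31) in SU-DHL-5 and 0.35 (0.27 to 0.45) in Toledo. Of the genes tested, 29.1% had a higher ratio than LYN in SU-DHL-5 and 15.4% in Toledo. With centring on transcript length the SU-DHL-5 value of LYN was 0.18. The DMSO libraries of Toledo differed by 0.26 on the log2 scale for LYN, the widest gap between libraries of 1 sample among these genes, so the Toledo value ranged from 0.23 to 0.49 by library. BLK (chr8:11494012-11564599), a kinase largely restricted to B cells, gave the clearest contrast between the lines. In SU-DHL-5 it was at 15.7 and 15.9 RPKM with DMSO and at 15.6 and 15.3 RPKM with JQ1, a log2 ratio of -0.03 whose interval included 0 (-0.12 to 0.06). In Toledo it was at 18.6 and 18.7 RPKM with DMSO and at 3.02 and 3.46 RPKM with JQ1. That is a log2 ratio of -2.49 (-2.68 to -2.37), or 5.61-fold lower, and only 0.949% of the 9380 genes tested in Toledo had a lower ratio. The response in Toledo minus that in SU-DHL-5 was -2.46 on the log2 scale for BLK, with -2.57 from library 1 and -2.35 from library 2. This difference was not tested, since each group had 1 sample. The ratio of LYN to BLK levels was 1.95 and 2.36 in SU-DHL-5 with DMSO and JQ1, and in Toledo it was 0.703 with DMSO and 5.16 with JQ1.

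SYK and BTK, the kinases that act after the SRC family, were lower under JQ1 in both lines. SYK (chr9:90801730-90898560) was at 24.4 and 25.9 RPKM in SU-DHL-5 with DMSO and at 14.2 and 13.6 RPKM with JQ1. Toledo had 35.4 and 37.7 RPKM of SYK with DMSO and 22.7 and 21.9 RPKM with JQ1. The groups did not overlap in either line, and the log2 ratios were -0.85 (-0.92 to -0.78) and -0.71 (-0.77 to -0.65), or 1.80-fold and 1.64-fold lower. BTK (chrX:101349447-101390796), a TEC-family kinase that phosphorylates phospholipase C gamma 2, was at 30.6 and 29.7 RPKM in SU-DHL-5 with DMSO and at 11.96 and 13.0 RPKM with JQ1. Toledo had a higher BTK level, at 104 and 107 RPKM with DMSO and at 53.7 and 53.1 RPKM with JQ1. The log2 ratio was -1.26 (-1.37 to -1.18) in SU-DHL-5, 2.40-fold lower, and -0.98 (-1.03 to -0.93) in Toledo, 1.97-fold lower. BTK in Toledo thus lay just inside the 2-fold line, and library 2 alone gave -1.003. The JQ1 level of BTK in Toledo still exceeded the DMSO level in SU-DHL-5.

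BLNK (chr10:96191699-96271576), the adaptor that joins SYK to BTK and PLCG2, was lower under JQ1 by more than 2-fold in both lines. It was at 57.5 and 58.1 RPKM with DMSO and at 20.9 and 21.3 RPKM with JQ1 in SU-DHL-5. Toledo had 57.1 and 63.7 RPKM with DMSO and 16.8 and 14.99 RPKM with JQ1. The log2 ratios were -1.45 (-1.55 to -1.36) and -1.92 (-2.03 to -1.82), or 2.73-fold and 3.78-fold lower. In SU-DHL-5, 2.86% of the 9094 genes tested had a lower ratio than BLNK, and 1.86% of 9380 did in Toledo.

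The effectors went the other way from the adaptor and from SYK and BTK. PLCG2 (chr16:81779294-81958294), which cleaves a membrane lipid into the messengers for calcium and protein kinase C, was at 83.0 and 78.5 RPKM in SU-DHL-5 with DMSO and at 109.8 and 113 RPKM with JQ1. In Toledo it was at 36.6 and 39.5 RPKM with DMSO and at 51.4 and 50.3 RPKM with JQ1. PLCG2 was higher in each JQ1 library than in each DMSO library of its line, with log2 ratios of 0.46 (0.43 to 0.50) and 0.42 (0.37 to 0.47). PRKCB (chr16:23835979-24220611) had the lowest level of the 10 genes in 3 of the 4 samples. It was at 3.11 and 3.53 RPKM in SU-DHL-5 with DMSO and at 5.33 and 4.98 RPKM with JQ1. Toledo had 7.62 and 8.45 RPKM of PRKCB with DMSO and 10.4 and 10.3 RPKM with JQ1. Its log2 ratios were 0.62 (0.51 to 0.76) and 0.36 (0.28 to 0.45), so PRKCB was 1.53-fold and 1.28-fold higher. With centring on transcript length the SU-DHL-5 value of PRKCB was 0.45. Of the genes tested in SU-DHL-5, 13.9% had a higher ratio than PLCG2 and 7.50% than PRKCB, and in Toledo 12.4% and 15.2% did. A microRNA gene, MIR1273H, overlaps PRKCB and was listed at 0 in every library.

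PTPN6 (chr12:6946577-6961316), which encodes the inhibitory phosphatase SHP-1, had the lowest log2 ratio of the 10 genes in both lines by the mean of the libraries. In Toledo its interval overlapped that of BLK, and with library 1 alone BLK was lower (-2.58, against -2.50 for PTPN6). In SU-DHL-5 it was at 122 and 103 RPKM with DMSO and at 27.7 and 29.6 RPKM with JQ1. In Toledo it was at 25.2 and 25.8 RPKM with DMSO and at 4.38 and 3.99 RPKM with JQ1. The DMSO level in Toledo was thus close to the JQ1 level in SU-DHL-5, and treated Toledo cells had the least. The log2 ratio was -1.97 (-2.04 to -1.91) in SU-DHL-5, 3.92-fold lower, and -2.58 (-2.77 to -2.44) in Toledo, 5.97-fold lower. In SU-DHL-5 1.36% of the genes tested had a lower ratio, and 0.832% did in Toledo. PTPN6 had lower ratios than SYK and BTK in both lines, and the level of SYK relative to PTPN6 in SU-DHL-5 was 0.223 with DMSO and 0.486 with JQ1. In Toledo this ratio was 1.43 and 5.32, so there SYK RNA was already the more abundant. For BTK relative to PTPN6 the values were 0.268 and 0.437 in SU-DHL-5. In Toledo they were 4.13 and 12.8. These are ratios of RNA levels and say nothing of protein or of activity.

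**Figure D2:**
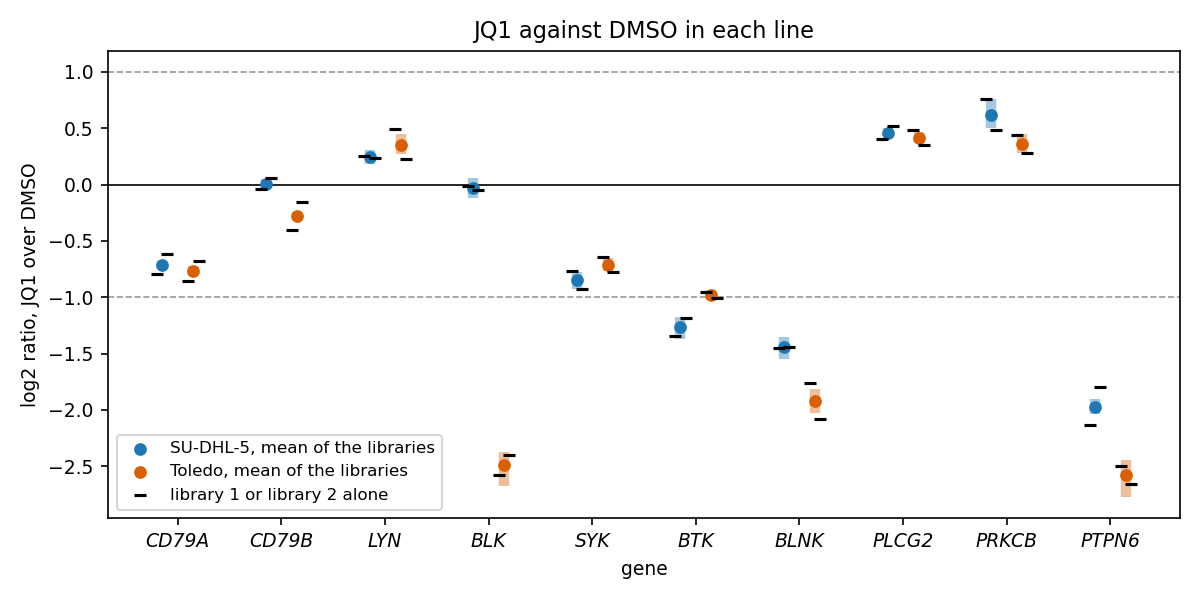
Log2 ratio of JQ1 over DMSO for each of the 10 genes, in blue for SU-DHL-5 and in orange for Toledo, with points for the mean of the libraries, shaded bars for the 95% counting interval, short black marks for library 1 and library 2 alone, and dashed lines at 2-fold. LYN, PLCG2 and PRKCB lie above 0 in both lines, CD79A, SYK, BTK, BLNK and PTPN6 lie below, and BLK is near 0 in SU-DHL-5 and at -2.49 in Toledo.

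All 10 genes passed the filter of a mean of at least 1 RPKM over the libraries compared, and the genes that did so are called tested here, although no test across samples was made. In SU-DHL-5, 3 of the 10 (BTK, BLNK and PTPN6) were more than 2-fold lower under JQ1, beside 5.54% of the 9094 genes tested, and none was more than 2-fold higher, beside 1.68%. Toledo likewise had 3 (BLK, BLNK and PTPN6) more than 2-fold lower, beside 6.81% of 9380 genes, and none more than 2-fold higher, beside 1.7%. In SU-DHL-5 6 of the 10 had both JQ1 libraries under both DMSO libraries, as did 38.0% of all genes tested, and in Toledo 7 had, as did 42.9%. LYN, PLCG2 and PRKCB had them above in both lines, beside 42.3% of genes for SU-DHL-5 and 29.7% for Toledo. A gene whose libraries do not overlap was thus common in these tables, and the size of the ratios tells more. In SU-DHL-5 the median log2 ratio of the 10 genes was -0.37, where that of all genes tested was 0.02. The median was -0.74 in Toledo, where that of all genes was -0.06. The median of the difference between the lines, Toledo minus SU-DHL-5, was -0.16 over the 10 genes, but -0.071 with median scaling and -0.068 with centring on transcript length. The largest differences after that of BLK were those of PTPN6, at -0.61, and BLNK, at -0.47, and library 1 alone gave -0.36 and -0.31 for these.

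Without JQ1, in the DMSO samples, the lines were already unlike in these genes, and the members differed in both directions. With Toledo over SU-DHL-5 in DMSO, the log2 ratio was 1.80 for BTK (1.75 to 1.86), 1.25 for PRKCB (1.15 to 1.38) and -2.14 for PTPN6 (-2.20 to -2.07). Toledo thus had 3.49-fold more BTK RNA and 4.40-fold less PTPN6 RNA than SU-DHL-5. LYN was at -1.23 (-1.32 to -1.16) and PLCG2 at -1.08 (-1.13 to -1.04), both lower in Toledo. CD79A and CD79B lay near 2-fold on opposite sides, at -0.98 and 0.97. That leaves the lines with different members of the receptor pair in the lead. SYK was at 0.54 and BLK at 0.24, higher in Toledo in both libraries, and summed transcripts gave 0.15 for BLK. Over the 10 genes the median was 0.15, and over all genes tested it was -0.01. BLNK was at 0.06 with libraries that overlapped, so its summed level was the only one of the 10 that was not set apart between the lines. In counts, 3 of the 10 (LYN, PLCG2 and PTPN6) were more than 2-fold lower in Toledo, beside 13.6% of the 9630 genes tested, and 2 (BTK and PRKCB) more than 2-fold higher, beside 14.9%. Both Toledo libraries were below both SU-DHL-5 libraries for 4 of the 10 and above for 5, against 42.3% and 42.2% of all genes. Since the same DMSO samples enter the JQ1 ratios, the baseline and the responses are given side by side and not related to each other.

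Ordered by level, SU-DHL-5 with DMSO had CD79A (602.9 RPKM), CD79B (226), PTPN6 (112.6), PLCG2 (80.8), BLNK (57.8), LYN (30.8), BTK (30.1), SYK (25.1), BLK (15.8) and PRKCB (3.32). No neighbours in that order had overlapping libraries, though LYN and BTK were close. Under JQ1 PTPN6 moved from position 3 to 5 there, and BTK from 7 to 9. In Toledo with DMSO the order was CD79B (444 RPKM), CD79A (305), BTK (105), BLNK (60.4), PLCG2 (38.1), SYK (36.5), PTPN6 (25.5), BLK (18.6), LYN (13.1) and PRKCB (8.04), and only PLCG2 and SYK had overlapping libraries. With JQ1, Toledo ended with PRKCB (10.3 RPKM), PTPN6 (4.19) and BLK (3.24), and only LYN and BLNK overlapped.

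The transcript table divides the reads of a gene among its annotated transcripts, an estimate that is less certain than the gene value. It lists 1 transcript for PLCG2 and 2 to 5 for each other gene. Of the 34 transcripts, 23 matched GENCODE v29 by exact length, from which coding lengths are given, and 2 of these (PRKCB_1 and PRKCB_2) each matched 2 GENCODE transcripts that have the same coding sequence and differ at the ends. The main transcript was the same in all 4 samples for 7 of the 10 genes, and BLNK was the exception of most weight. BLNK_2, which encodes 456 residues and holds the exon shown above, had 66.3% and 72.8% of the BLNK level in the SU-DHL-5 DMSO libraries and 67.7% and 70.1% with JQ1. BLNK_1, which lacks the exon and encodes 433 residues, had 32.0% and 25.6%, then 30.7% and 28.5%. In Toledo with DMSO the order was turned, with 75.2% and 66.8% for BLNK_1 and 20.9% and 29.8% for BLNK_2. So SU-DHL-5 and Toledo, with nearly the same total of BLNK RNA, held both forms in different proportions: with DMSO, BLNK_1 was at 16.8 RPKM in the former line and 44.3 RPKM in the latter, and BLNK_2 at 40.7 and 16.0 RPKM. With JQ1 in Toledo the libraries disagreed, with BLNK_1 at 42.0% in library 1 and 61.2% in library 2, from 206 and 267 reads, and no direction is read from them.

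Other genes differed in where their transcripts start. PTPN6_3, which begins at the downstream promoter and encodes 595 residues, had 91.1% of the PTPN6 level in SU-DHL-5 with DMSO, 87.3% with JQ1, and 95.5% in Toledo with DMSO. PTPN6_1 begins at the upstream promoter, differs at the start of the protein and encodes 597 residues. It had 190 and 448 reads in the SU-DHL-5 DMSO libraries and 115 and 141 with JQ1. In Toledo it had 2 and 0 reads with DMSO and 74 and 20 with JQ1, while PTPN6_3 went from 1128 and 1034 reads to 113 and 149. The share of PTPN6_1 in Toledo with JQ1 was thus 40.5% in library 1 and 12.3% in library 2, above the 0.178% or less with DMSO in both. The libraries of 1 sample differed by more than 2-fold in these splits, which limits them. For SYK, SYK_1 starts at the first exon and SYK_5 further inside the gene, and both encode 635 residues. SYK_5 had 24.0% and 21.1% of the SYK level in SU-DHL-5 with DMSO and 1.82% and 2.69% in Toledo. BLK_5, which starts downstream of the first exon of BLK_1 and was not matched, had 38.9% and 39.0% of the BLK level in SU-DHL-5 with DMSO and 33.0% and 30.8% with JQ1, and was listed at 0 in 1 library of each Toledo sample. BLK_1, of 505 residues, was at 12.8 and 12.8 RPKM in SU-DHL-5 with DMSO, and in Toledo went from 23.5 RPKM in both DMSO libraries to 2.71 and 3.88 RPKM with JQ1.

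**Figure D3:**
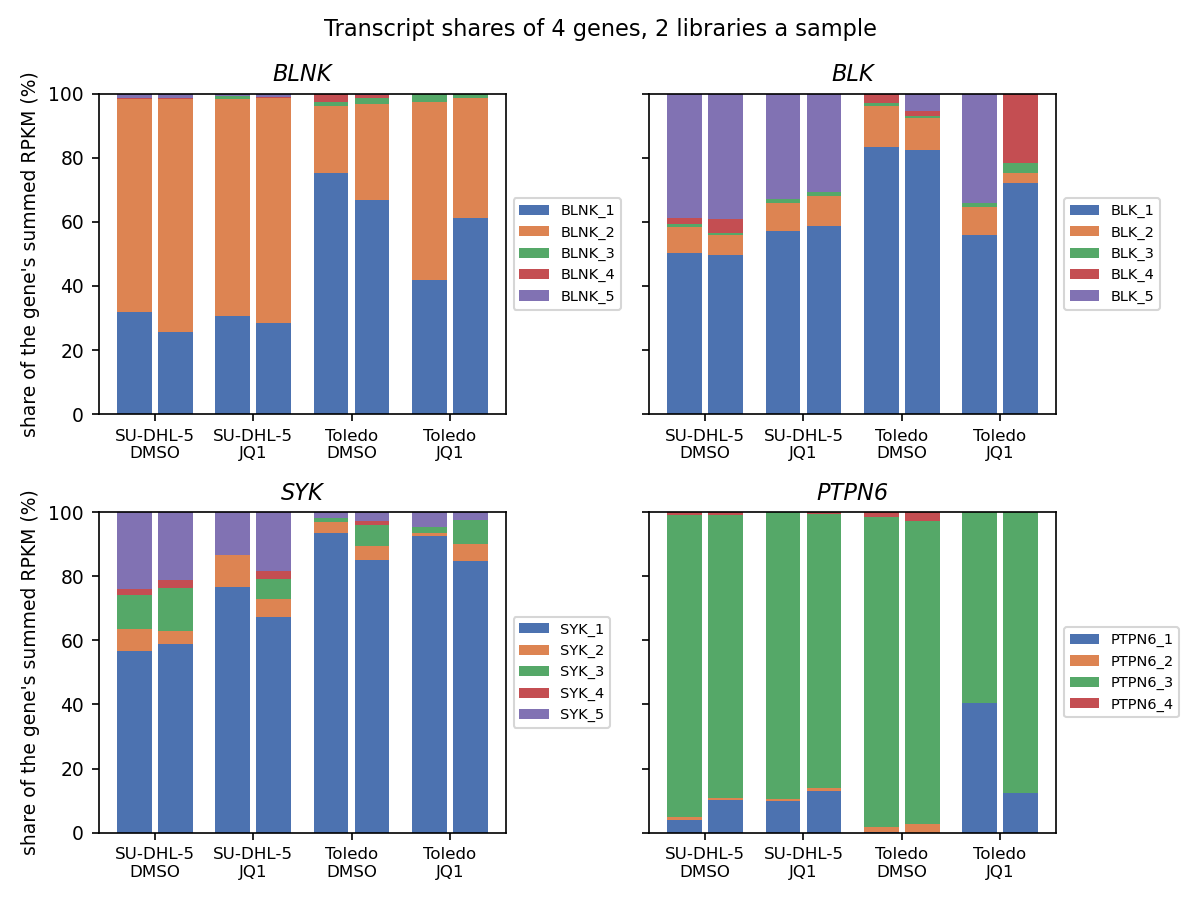
Share of each listed transcript in the summed RPKM of BLNK, BLK, SYK and PTPN6, as stacked bars from 0 to 100% with 1 bar for each of the 2 libraries of a sample. BLNK_2 takes most of the SU-DHL-5 bars and BLNK_1 most of the Toledo DMSO bars, and the Toledo JQ1 bars differ between libraries for BLNK, BLK and PTPN6.

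The remaining splits were steadier, apart from the minor forms of LYN. BTK_2, the form of 659 residues, had 97.6% and 98.3% of the BTK level in SU-DHL-5 with DMSO and at least 86.9% in every library. CD79A_2 lacks 114 coding bases (38 codons) at the end of exon 2, within the extracellular part, and had 13.4% to 19.9% of the CD79A level over the 8 libraries. CD79B_3 and CD79B_4, which differ by 3 bases (1 codon), shared the CD79B level about evenly, with 44.6% to 49.1% for CD79B_3. PRKCB_1 and PRKCB_2 encode 673 and 671 residues and differ in their last coding exon, the known βII and βI forms of protein kinase C beta. PRKCB_1 had 44.3% to 57.5% of the PRKCB level. LYN_3, which starts inside the gene and was not matched, had 66.6% to 74.8% of the LYN level, and the remainder was split between LYN_1 (512 residues) and LYN_2 (491 residues).

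Other genes of the pathway were examined in lists chosen by role, with earlier results of these data known. Of 95 such genes in the table, 65 passed the filter in SU-DHL-5, and 18 of these were more than 2-fold lower under JQ1 and none more than 2-fold higher, where 5.54% and 1.68% of all genes tested were. In Toledo 63 passed, 15 were more than 2-fold lower and 1 was more than 2-fold higher, where 6.81% and 1.7% of all genes were. The immunoglobulin chains themselves could not be followed, since the 11 constant-chain genes found in the table, IGHM among them, were listed at 0 in every library. Coreceptors and inhibitory receptors had the lowest median of the lists, -1.12 over 8 genes for SU-DHL-5 and -1.11 over 9 for Toledo. CD22, which recruits SHP-1, had log2 ratios of -1.47 and -1.11, and CD72, which does so too, had -3.01 and -2.82. SIGLEC10, a further inhibitory receptor, was at -2.83 and -2.51. CD81, a tetraspanin of the coreceptor complex, was at -0.11 and -0.16, with DMSO levels of 275 and 451 RPKM. In SU-DHL-5 4 genes of this list were more than 2-fold lower and in Toledo 5 were, where FCGR2B, the inhibitory Fc receptor, also passed the filter. Some lower genes of the lists passed the filter only through their DMSO level and lay under 1 RPKM with JQ1. Among these were LAT2 in SU-DHL-5 and SIGLEC10, FCGR2B, UBASH3B and RASGRP1 in Toledo, so the size of their ratios is less certain.

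Among adaptors beside BLNK, 3 of 14 in SU-DHL-5 and 3 of 15 in Toledo were more than 2-fold lower, beside 5.54% and 6.81% of all genes tested. They were BANK1, DOK3 and LAT2 in both lines. BANK1, a scaffold for LYN, had log2 ratios of -1.48 and -1.63. LAT2, a membrane adaptor related to LAT, had DMSO levels of 1.90 RPKM in SU-DHL-5 and of 31.4 RPKM for Toledo, with log2 ratios of -3.02 and -3.64. GRB2, the general adaptor, was at 0.23 and 0.18. Negative regulators beside PTPN6 had 3 of 13 lower in SU-DHL-5 (INPP5D, PTPN22 and UBASH3B) and 2 of 12 in Toledo (INPPL1 and UBASH3B), beside the same shares of all genes. INPP5D, the lipid phosphatase SHIP1, was at -1.10 and -0.75, and PTPN11, which encodes SHP-2 and is the close relative of PTPN6, was at 0.36 and 0.05. CSK, the kinase that restrains the SRC family, had DMSO levels of 124 RPKM in SU-DHL-5 and of 18.8 RPKM for Toledo.

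**Figure D4:**
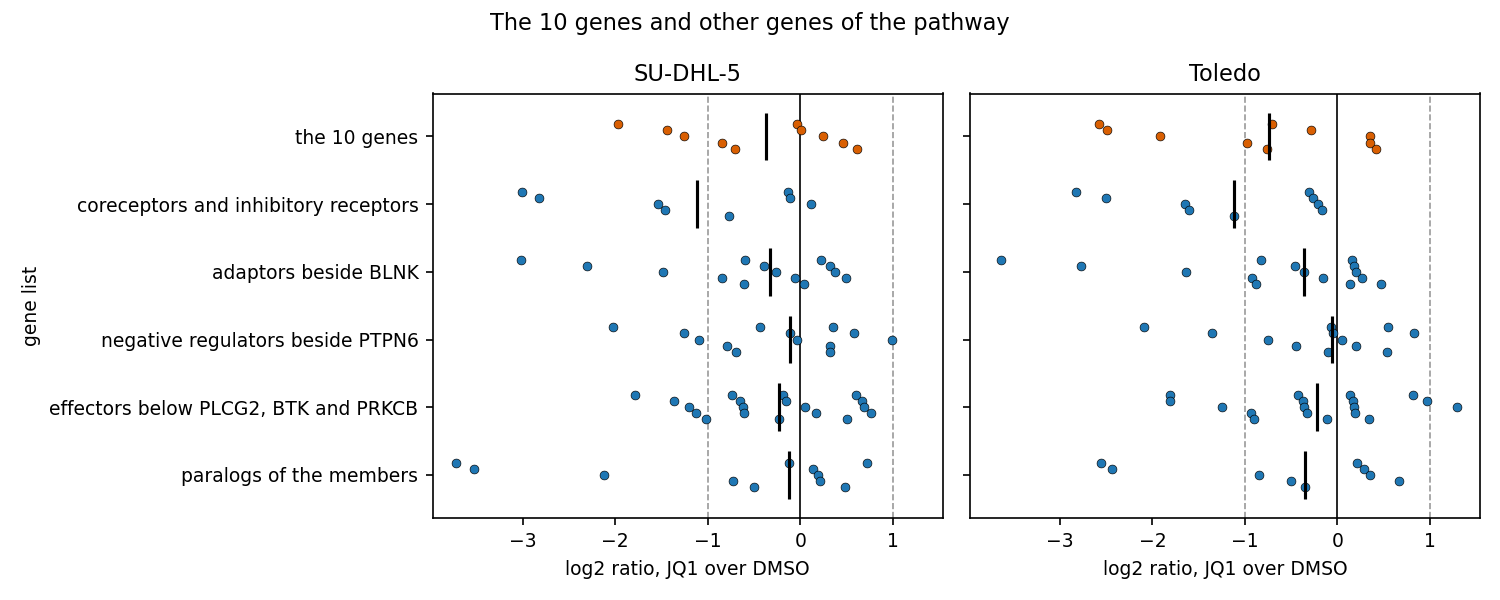
Log2 ratio of JQ1 over DMSO in SU-DHL-5 and Toledo for the 10 genes and for the genes of 5 further lists that passed the filter, with a point for each gene, a bar at the median of the list and dashed lines at 2-fold. The 10 genes have medians of -0.37 and -0.74, the coreceptors and inhibitory receptors -1.12 and -1.11, and the negative regulators -0.11 and -0.06.

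Below PLCG2, BTK and PRKCB, 5 of 19 effectors were more than 2-fold lower in SU-DHL-5 and 3 of 18 in Toledo, beside 5.54% and 6.81% of all genes tested. RASGRP1, an exchange factor activated by the lipid product of PLCG2, was in both sets, with log2 ratios of -1.78 and -1.81. PIK3CD, the B-cell PI3-kinase catalytic subunit, was at -1.02 and -0.43. ITPR1, a calcium channel opened by the other product of PLCG2, was at 0.66 and 1.29, the single pathway gene more than 2-fold higher in Toledo. Its level there was low, at 0.635 and 0.986 RPKM in the DMSO libraries and at 2.32 and 1.93 RPKM with JQ1. Among paralogs of the members, LCK went from 19.4 to 1.38 RPKM in SU-DHL-5 and from 1.91 to 0.271 RPKM in Toledo. FYN, a further SRC-family kinase, was higher at 0.72 and 0.67. PLCG1, the paralog of PLCG2, was at 0.19 and 0.29. The SRC-family kinases of each line thus included genes with lower and genes with higher levels under JQ1, and LYN was one of the latter.

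Genes whose 4 sample means lay nearest to those of the receptor chains, on log2 values centred on each gene's own mean, were sought among 9520 genes. For CD79A they were PKMYT1, METTL10 and PHGDH, at Euclidean distances of 0.0993 to 0.110. For CD79B they were ZNF275, FBXO28 and RBM48, at 0.0295 to 0.0558. PHGDH, an enzyme of serine synthesis, went from 143 to 78.5 RPKM in SU-DHL-5 and from 67.8 to 40.4 RPKM in Toledo. With 4 points from 2 lines, such likeness is a description of these samples.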

How the data were processed

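The mRNA of both lines was sequenced by the authors with a stranded library kit. The values the authors deposited are RPKM, in a gene table and a transcript table. The submitters' processing notes name CASAVA 2.0 and the builds GRCh38 and hg38, and the aligner, the counting and the annotation are not given in the sources used here. Positions overlapped those of RefSeq GRCh38.p14 for 99.8% of 32699 shared symbols.

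The mapped reads of each library and the length of each feature were recovered as the values that made RPKM whole reads, within 0.02 reads, for 14942 of 14944 genes with a value. The recovery of lengths and reads was tested on simulated data in which the mapped reads were given. The recovery of the mapped reads was not tested in this way. Recovered reads served for intervals and as the reads behind transcripts, and no count model was fitted. Ratios used the mean of the 2 libraries and a pseudocount of 0.1 RPKM, which understates the change of low genes. Genes with a mean of at least 1 RPKM over the libraries compared were tested against a fold of 2, in the whole gene table, and the same genes by whether libraries overlapped. With n = 1 sample a group, no test across samples was made.

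The named genes were the 10 members, genes of the pathway lists that passed 2-fold or have a role beside a member, the 3 genes nearest to CD79A and to CD79B, and transcripts with at least 10% of a gene in any sample. The members and lists were chosen with earlier results of these data known. Alternatives varied the pseudocount, the library, the scaling, the centring on length, the table, the filter and the fold. Results for some genes of the lists are not reported here, but the genes remain in the counts and medians. Protein sequences were not used here. The tools were matplotlib 3.10.9, scipy 1.17.1, pandas 2.3.3 and numpy 2.4.6, run in Python 3.11.15.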

Additional observations from a re-analysis of the deposited data

How the results depend on the processing

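Of 210 values of single genes under other settings fixed with the design, 152 stayed within the counting interval of the reported value, 58 moved beyond it and 3 changed sign, all from values near 0: CD79B in SU-DHL-5 (-0.04 with library 1 alone and -0.01 with median scaling) and BLNK between the lines (-0.01 with library 1 alone). The 2-fold line was crossed by 5 values. With library 1 alone CD79A and CD79B between the lines were at -1.04 and 1.02, with library 2 alone BTK in Toledo was at -1.003 and PLCG2 between the lines at -0.99, and with centring on transcript length CD79B between the lines was at 1.03. The median response in Toledo, reported as -0.74, was -0.67 with median scaling and -0.65 with centring on length, and the median between the lines, reported as 0.15, was 0.21 with centring on length. The median difference of the responses, reported as -0.16, was -0.12 with a pseudocount of 1 RPKM, -0.18 with library 1 alone, -0.19 with library 2 alone, -0.071 with median scaling, -0.068 with centring on length and -0.12 with summed transcripts. At 1.5-fold, 5 of the 10 genes were lower (12.1% of all genes tested) and 1 higher (8.74%) for SU-DHL-5, and 6 were lower for Toledo (15.8%). With a filter of 10 RPKM, 1 gene in place of 2 was more than 2-fold higher in Toledo with DMSO, since PRKCB fell under the filter, and the share of all genes was 9.58%. For the other shifts the cause was not tested. No paired analysis was run. The labels give no replicate numbers, and pairing DMSO with JQ1 within each line would give 2 pairs, of different lines. Reads limit the values little except in transcripts with few reads, and the single sample a group limits every comparison.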
